A study of Homo sapiens with 14 samples.

Results

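R-loops over 10 genes that set B cell identity were examined by DRIP-seq in Nalm-6, a human pre-B cell leukemia line. The genes were PAX5, EBF1, TCF3, IKZF1, IKZF3, ETV6, MEF2C, BACH2, FOXP1 and CD79A, taken by name and not by a rule on measured values, out of 19982 protein-coding genes of the annotation. Earlier results of these data were known when the genes were chosen. For each gene, the peaks of each library that shared at least 1 base with the gene body or the 3 kb on either side of it (the gene window) were counted. The 8 libraries came from isogenic cells carrying either SF3B1 K700K, the unchanged allele (WT), or SF3B1 K700E, the hotspot allele of this splicing factor (MT), with 2 untreated and 2 RNH1-treated libraries for each genotype. RNH1 is RNase H, an enzyme that removes the RNA strand of DNA:RNA hybrids, and treatment was of the extracted DNA, not of the cells. Nothing in the labels says whether the 2 libraries of a group came from separate cultures, so p-values measure the spread between these libraries, which may be technical. A peak list holds no RNA level, and the cell type could therefore not be checked against marker expression.

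In an R-loop, a transcript pairs with its template DNA and leaves the other strand unpaired, and the S9.6 antibody used for DRIP binds such hybrids. EBF1 and TCF3 (E2A) are the transcription factors that specify the B lineage, and PAX5 commits cells to it. IKZF1 (Ikaros) and IKZF3 (Aiolos) are zinc finger factors of lymphoid cells, and ETV6 is an ETS family repressor that is fused to RUNX1 in childhood B cell leukemia. MEF2C, BACH2 and FOXP1 are further transcription factors of B cells, and CD79A is a signalling chain of the B cell receptor.

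In all, 1015 of the 1318662 peaks listed on the autosomes, X and Y fell in these gene windows, between 27 in WT RNH1 replicate 1 and 259 in untreated MT replicate 2. Counted on these chromosomes, the lists held 123720 and 131096 peaks for untreated WT and 254170 and 296533 for untreated MT. They held 34952 and 77550 for WT RNH1 and 201804 and 198837 for MT RNH1. Read totals are unknown. The fold enrichment and p of each peak give the local background behind it, which had a median between 1.9 reads in WT RNH1 replicate 1 and 5.08 reads in untreated MT replicate 2 at the peaks of these genes. Within each treatment the MT libraries had the deeper background as well as the longer lists, and the part of depth in the differences between genotypes was not tested. The median pileup at the summit was 14 to 26 reads, so a peak in these windows rests on few fragments.

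R-loop peaks over the specification and commitment factors were not alike. EBF1 held 19 and 16 peaks in the untreated WT libraries against 56 and 63 in the untreated MT libraries. After RNH1 it held 8 and 12 peaks in WT against 32 and 30 in MT. Every MT library was thus above every WT library of the same treatment, with no overlap of the groups. PAX5 held 7 and 7 untreated peaks in WT against 14 and 11 in MT, and after RNH1 2 and 5 in WT against 5 and 4 in MT. Its untreated groups did not overlap, while its RNH1-treated groups did. TCF3 held no peak in any of the 4 untreated libraries, and its one peak was in MT RNH1 replicate 1, in intron 3, with a fold enrichment of 3.73 over the local background.

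Among the zinc finger and ETS factors, IKZF1 went from 1 and 4 untreated peaks in WT to 12 and 14 in MT, and held 1 and 2 peaks in WT RNH1 against 4 and 5 in MT RNH1. IKZF3 had 6 and 5 untreated peaks in WT against 11 and 9 in MT, with 2 and 3 in WT RNH1 against 7 and 7 in MT RNH1. For ETV6, the untreated counts were 9 and 9 in WT against 28 and 39 in MT, and the RNH1 counts 5 and 8 against 19 and 17. In these genes too the untreated MT libraries stood above both WT libraries.

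The remaining transcription factors showed the same order of genotypes. MEF2C held 6 and 11 untreated peaks in WT against 19 and 21 in MT, with 2 and 4 in WT RNH1 against 14 and 15 in MT RNH1. BACH2 held 15 and 20 in WT against 39 and 52 in MT, and 3 and 13 against 25 and 30 after RNH1. FOXP1, the longest of the 10 genes, held 19 and 21 in WT against 50 and 50 in MT, and 4 and 8 against 28 and 26 after RNH1. CD79A, whose window is only 10094 bp long, held no untreated peak, and its one peak was in WT RNH1 replicate 2, downstream of the gene, with a fold enrichment of 2.87. The CD79A window also reaches into ARHGEF1, and the FOXP1 window overlaps 1 other protein-coding record, so peaks there cannot be given to a single gene.

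**Figure D1:**
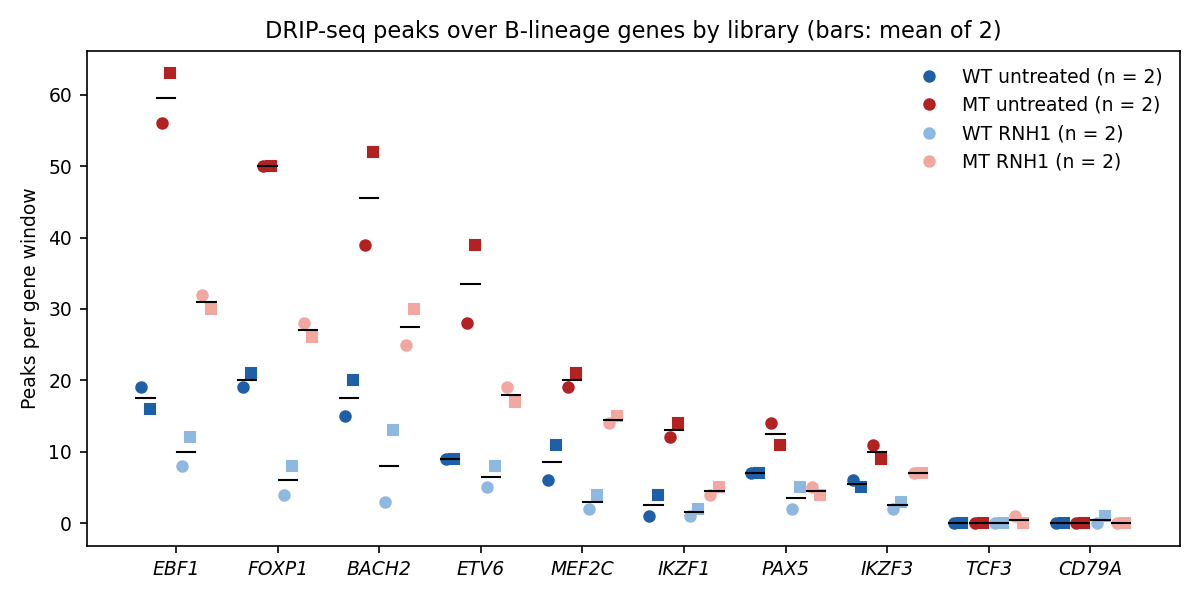
Number of DRIP-seq peaks per gene window (vertical axis) for the 10 B-lineage genes in each library, with circles for replicate 1, squares for replicate 2 and bars for the mean of 2. Untreated MT libraries lie above untreated WT libraries for 8 genes, by most in EBF1 (56 and 63 against 19 and 16), and TCF3 and CD79A lie at 0 in every untreated library.

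The genotypes were compared by limma on log2(peaks + 1) over the 11232 gene windows with at least 8 peaks summed over the 8 libraries, which TCF3 and CD79A did not reach. In the untreated libraries, 5 of the 8 tested genes were called higher in MT at an adjusted p under 0.05 (Benjamini-Hochberg over all windows) and 0 lower, where 32.4% of all windows were called higher. The 5 were EBF1 (log2 difference 1.71 ± 0.23 SE, adjusted p = 0.00887), ETV6 (1.77 ± 0.27, adjusted p = 0.0124), IKZF1 (2.14 ± 0.48, adjusted p = 0.0277), FOXP1 (1.28 ± 0.29, adjusted p = 0.0303) and IKZF3 (0.76 ± 0.21, adjusted p = 0.0452). MEF2C (1.19 ± 0.36, adjusted p = 0.0537), BACH2 (1.33 ± 0.60, adjusted p = 0.131) and PAX5 (0.75 ± 0.36, adjusted p = 0.145) did not pass. Both untreated MT libraries were above both WT libraries for 8 of 8 tested genes, as they were for 76.1% of all windows. The median log2 difference was 1.31 over the 8 genes and 0.95 over all windows, and 6 of the 8 lay above the latter, with IKZF1 1.19 above it and PAX5 and IKZF3 0.21 and 0.20 below it. Here and below, the windows set beside the genes were not matched to them for number of peaks. Calls, overlap and this log2 scale all depend on that number.

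These calls changed with scaling to list length and when single libraries were left out. Untreated lists were longer in MT, so scaling also takes out a difference shared by all windows. Whether depth or genotype set the list lengths was not tested. With each count scaled to its list's length, which moved the median of all windows from 0.95 to 0.06, limma called 0 of the 8 genes at an adjusted p under 0.05, with 3 at an unadjusted p under 0.05, and PAX5 and IKZF3 turned to −0.25 and −0.21. The scaled log2 differences of the others were 1.23 for IKZF1, 0.72 for ETV6, 0.64 for EBF1, 0.26 for BACH2, 0.21 for FOXP1 and 0.17 for MEF2C. Over all windows the split of calls was 3639 higher and 43 lower for the counts as listed and 303 higher and 44 lower after scaling. After scaling, 1937 of the 11232 windows had an unadjusted p under 0.05 by limma. Without WT replicate 1, WT replicate 2, MT replicate 1 or MT replicate 2 of the untreated libraries, fewer of the genes were called. Fewer of all windows were called as well. The call of IKZF3 was the least stable: it was lost without any one of these libraries and under every alternative fit to the counts except that of peaks with their summit in the window. With the replicate number as a block IKZF3 missed the threshold (limma adjusted p = 0.0674) and MEF2C passed it (adjusted p = 0.0363).

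The authors called bona fide R-loops over their RNH1-treated samples. Here, by a simpler rule of overlap that is not theirs, an untreated peak counted as bona fide if nothing in the RNH1-treated list with its genotype and replicate number overlapped it. EBF1 kept 16 and 11 such peaks in WT against 33 and 40 in MT, and FOXP1 16 and 15 against 33 and 33. BACH2 kept 13 and 11 against 23 and 31, ETV6 7 and 5 against 16 and 24, and IKZF1 1 and 4 against 9 and 10. The counts of PAX5 (6 and 5 against 12 and 7), MEF2C (6 and 7 against 9 and 8) and IKZF3 (5 and 3 against 8 and 4) lay closer together, and only those of IKZF3 overlapped between the genotypes. MT was above WT without overlap for 7 of the 8 genes and for 47.1% of the 7102 windows tested, which again were not matched for number of peaks.

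By limma on the 4 libraries of bona fide peaks, 0 of the 8 genes were called at an adjusted p under 0.05. Of all windows, 0.239% were called higher. An unadjusted p under 0.05 was found for 4 of the 8 genes and for 2107 of the 7102 windows. The log2 differences ran from 0.34 ± 0.14 (SE) in MEF2C to 1.73 ± 0.56 in IKZF1, with FOXP1 at 1.04 ± 0.09 (adjusted p = 0.067), ETV6 at 1.57 ± 0.30 (adjusted p = 0.111) and EBF1 at 1.39 ± 0.25 (adjusted p = 0.101). Their median was 1.07, beside 0.50 over all windows. Scaled to the length of the bona fide lists, EBF1 (0.86, limma adjusted p = 0.00736) and ETV6 (1.07, adjusted p = 0.0129) were called, MEF2C turned to −0.15, and the split over all windows went from 17 higher and 1 lower to 435 higher and 272 lower.

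**Figure D2:**
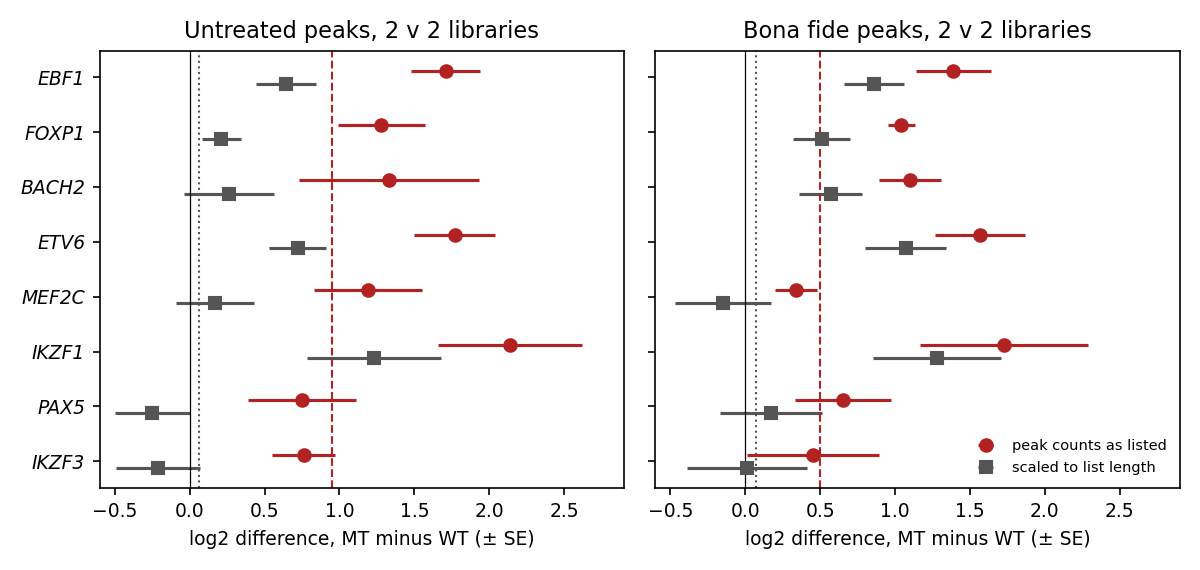
Log2 difference in peaks per gene window, MT minus WT, ± SE (horizontal axis) for the 8 tested genes, for untreated peaks (left) and bona fide peaks (right), 2 libraries against 2. Circles are counts as listed and squares counts scaled to list length, and the dashed and dotted lines are the medians of all windows (0.95 and 0.06 on the left). For untreated peaks PAX5 and IKZF3 lie left of the median line and IKZF1, ETV6 and EBF1 right of it, as listed and scaled.

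RNH1-treated libraries still held peaks over these genes, and MT lay above WT among them too. Of the 8 genes, 6 were called higher in MT RNH1 than in WT RNH1, where 62.0% of all windows were. FOXP1 differed by 2.06 ± 0.29 (SE) on the log2 scale (limma adjusted p = 0.00556), MEF2C by 2.0 ± 0.36 (adjusted p = 0.00937), BACH2 by 1.92 ± 0.60 (adjusted p = 0.0395), EBF1 by 1.56 ± 0.23 (adjusted p = 0.00574), ETV6 by 1.37 ± 0.27 (adjusted p = 0.0114) and IKZF3 by 1.21 ± 0.21 (adjusted p = 0.00862). IKZF1 (1.16 ± 0.48, adjusted p = 0.081) and PAX5 (0.37 ± 0.36, adjusted p = 0.386) did not pass. MT RNH1 was above WT RNH1 without overlap for 7 of the 8 genes, PAX5 being the exception, and for 74.8% of all windows. Scaled to list length, PAX5 alone of the 8 was called, and it was lower in MT RNH1 (−1.23 ± 0.25, limma adjusted p = 0.0222), while EBF1, IKZF1, IKZF3 and ETV6 turned to between −0.23 and −0.41. The split over all windows moved from 6961 higher and 52 lower to 1507 higher and 565 lower. Without MT RNH1 replicate 1 or MT RNH1 replicate 2, fewer of the 8 genes were called. Over all windows the number of calls also varied with the library left out. With only the 2 groups compared in the fit limma called 0 of the 8, with all 8 still higher in MT.

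Within WT, untreated counts were called above RNH1-treated counts for FOXP1 (1.64 ± 0.29 SE, limma adjusted p = 0.0196) and IKZF3 (0.90 ± 0.21, adjusted p = 0.0338), which is 2 of the 8 genes where 25.7% of all windows were called higher. Scaled to list length, FOXP1 stayed higher (0.51, limma adjusted p = 0.043), ETV6 was called lower (−0.73, adjusted p = 0.0445), and PAX5, EBF1, IKZF1 and IKZF3 turned to between −0.12 and −0.55. Over all windows that scaling moved the split from 2887 higher and 73 lower to 1438 higher and 441 lower. According to Methods part of the same fragmented DNA was treated, so the untreated and treated libraries of one number and genotype may come from the same DNA. With a block for each such pair, which was added after the data were seen, limma called 0 of the 8 genes and 0 of all windows in WT, with 3 and 4787 at an unadjusted p under 0.05. FOXP1 then had an adjusted p of 0.0588 and IKZF3 of 0.0926. With the replicate number as a block common to both genotypes, FOXP1 (limma adjusted p = 0.0297) and MEF2C (adjusted p = 0.0392) were called and IKZF3 was not (adjusted p = 0.0547). Leaving out single untreated WT or WT RNH1 libraries changed how many of the genes, and how many of all windows, were called. Within MT, limma called 0 of the 8 genes, where 2.75% of all windows were called higher. An unadjusted p under 0.05 was found for 5 of the 8 genes and for 2353 of the 11232 windows. The MT differences ran from 0.44 ± 0.36 (SE) in MEF2C and 0.45 ± 0.21 in IKZF3 to 1.29 ± 0.36 in PAX5 and 1.35 ± 0.48 in IKZF1. With only the 2 groups compared in the fit, limma called EBF1, IKZF1 and FOXP1 in MT and 0 of the 8 genes in WT. The difference between the genotypes in this response to RNH1 was itself tested, and limma called 0 of the 8 genes and found 0 at an unadjusted p under 0.05, where 1.44% of all windows were called in either direction. That difference ran from −0.81 ± 0.50 (SE) in MEF2C to 0.98 ± 0.67 in IKZF1. Scaled to list length limma again called 0 of the 8, but 3 had an unadjusted p under 0.05, the median of the 8 moved from −0.15 to 0.54, and IKZF3 (−0.45 to 0.16) and BACH2 (−0.59 to 0.08) changed sign. Of all windows, 1938 had an unadjusted p under 0.05 by limma for this difference as listed and 2097 scaled. With the block for each pair, 0 of the 8 genes and 0 windows were called in MT and for the difference. In that limma fit 4 and 1 of the genes, and 2260 and 1760 of all windows, had an unadjusted p under 0.05.

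Peaks of the 8 lists that overlapped one another were merged, which gave 392 regions over the 10 genes, 264 to 2620 bp long with a median of 510.5 bp. Of these, 368 lay in introns of the canonical transcript, 17 touched one of its exons, 4 lay upstream and 2 downstream of the gene, and 1 lay in the gene outside that transcript. EBF1 had 87 regions, FOXP1 86, BACH2 74, ETV6 50, MEF2C 31, PAX5 23, IKZF1 20 and IKZF3 19. An untreated peak was present in 346 of them and in all 4 untreated libraries in 37, and 46 regions held peaks of treated libraries alone. Untreated replicates shared most of their peaks: 81.2% of the peaks of untreated MT replicate 1 met a peak of replicate 2 and 71.0% the reverse, and for WT these shares were 69.5% and 60.2%. Across genotypes, 53.8% to 61.0% of the untreated WT peaks met an MT peak, and 19.3% to 22.3% of the untreated MT peaks met a WT peak.

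Regions were counted as MT only where both untreated MT libraries had a bona fide peak and neither untreated WT library had any peak, and as WT only in the reverse case. There were 60 MT-only regions, 17.34% of the 346, beside 13.1% of all regions in protein-coding windows. The 10 WT-only regions were 2.89%, beside 5.28% of all regions. EBF1 held 16 of the MT-only regions, FOXP1 11, BACH2 9, ETV6 8, PAX5 5, IKZF1 5, IKZF3 3 and MEF2C 3. WT-only regions lay in EBF1 (4), FOXP1 (4), ETV6 (1) and MEF2C (1). Counted from peaks with a fold enrichment of 4 or more alone, there were 24 MT-only and 9 WT-only regions. These are not all among the 60 and 10, because a lower peak in the other genotype no longer counted. An EBF1 region in intron 10, for example, had 6.36 and 5.95 in WT and 3.97 and 3.39 in MT. The MT-only count rose to 129 and 105 without untreated MT replicate 1 and 2, and the WT-only count to 28 and 24 without untreated WT replicate 1 and 2.

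The MT-only region with the highest mean fold enrichment, level with one in intron 3 of BACH2, lay on exon 2 of PAX5, at chr9:37020184-37021013 of GRCh38, 13.7 kb into the gene. Its fold enrichment was 7.01 in untreated MT replicate 1 and 7.33 in replicate 2, and none of the 6 other libraries had a peak there. The exon, of 166 bp, is one of those that encode the paired DNA-binding domain of PAX5. It is printed in capitals between its flanking introns, in the direction of the gene (minus strand), from GRCh38 chr9:37020569-37020868, because it is coding sequence under an MT-only region.
PAX5 exon 2: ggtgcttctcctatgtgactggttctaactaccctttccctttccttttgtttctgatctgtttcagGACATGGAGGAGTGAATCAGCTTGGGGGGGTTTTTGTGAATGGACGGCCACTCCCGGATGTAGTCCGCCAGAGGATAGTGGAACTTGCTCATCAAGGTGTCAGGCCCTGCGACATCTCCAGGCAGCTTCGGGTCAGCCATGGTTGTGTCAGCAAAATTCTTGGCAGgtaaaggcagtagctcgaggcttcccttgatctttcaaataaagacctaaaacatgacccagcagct
The summits of the 2 peaks were at 37020862 in replicate 1 and 37020645 in replicate 2, the first in the intron beside the exon and the second within it.

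The other MT-only regions named by height were in introns. BACH2 had one at chr6:90234795-90235491 in intron 3, with a fold enrichment of 7.14 and 7.21, and FOXP1 had 3, in introns 6 and 7, between 4.49 and 7.47. The WT-only regions were led by one at chr5:88713892-88714233, downstream of MEF2C, with a fold enrichment of 6.73 and 7.85. EBF1 followed with 3, between 4.98 and 6.63, and FOXP1 with 1, at 5.24 and 5.56. Heights inside and between these classes overlapped, and no test was made of them because the class fixes which libraries hold a peak.

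Exonic and intronic regions were counted apart after the values were seen, without a test. Of the 17 exonic regions, 3 (17.6%) had a peak in any untreated WT library and 15 (88.2%) in any untreated MT library. Of the 368 intronic regions, 113 (30.7%) did so in WT and 281 (76.4%) in MT. In 9 exonic regions (52.9%) both MT libraries and no WT library had an untreated peak, as in 114 intronic ones (31.0%). Beside PAX5 exon 2 they included exon 7 of IKZF1 (6.67 and 7.70 in MT), exon 7 of IKZF3 (6.36 and 7.80), exon 8 of ETV6 (5.79 and 5.78) and exon 16 of EBF1 (5.73 and 7.40). The IKZF1 and IKZF3 regions were also listed in both MT RNH1 libraries, with a fold enrichment of 7.61 and 7.26 in IKZF1 and 3.51 and 5.20 in IKZF3. The IKZF1 region also had 4.4 in WT RNH1 replicate 2, and that on exon 16 of EBF1 had 5.06 in MT RNH1 replicate 1. The regions on exon 7 of IKZF1, exon 7 of IKZF3 and exon 16 of EBF1 thus did not meet the definition of MT-only. Those on exon 8 of ETV6 and exon 2 of PAX5 did. The last exon of MEF2C (exon 11) had 8.56 and 9.63 in MT and 3.69 in WT replicate 1. A region touching exon 4 of EBF1 was the one exonic region in all 4 untreated libraries, at 4.46 and 3.99 in WT and 6.02 and 6.87 in MT.

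Around the gene starts these genes held few untreated peaks. Within 3 kb of the annotated start, an untreated peak was found in any library for 2 of the 10 genes, beside 46.1% of all protein-coding genes. This start is the outer end of the gene record, and starts of other transcripts were not examined. In MEF2C a region 20.3 kb from it still lay outside the canonical transcript. IKZF3 had 2 upstream of its start in MT replicate 1, with a fold enrichment of 3.08 and 3.44, and BACH2 had 1 in intron 1 in MT replicate 2, at 3.03. Neither gene had one in the other MT library or in WT. RNH1-treated lists held peaks near the starts of PAX5, EBF1, BACH2 and FOXP1. Such a peak was found for 2 and 3 of the 10 genes in the WT RNH1 libraries, beside 4.4% and 10.9% of all genes, and for 3 and 2 in the MT RNH1 libraries, beside 22.4% and 22.2%. The clearest was 2.5 kb inside EBF1, with a fold enrichment of 3.31 and 3.15 in WT RNH1 and 4.07 and 4.45 in MT RNH1 and no untreated peak.

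**Figure D3:**
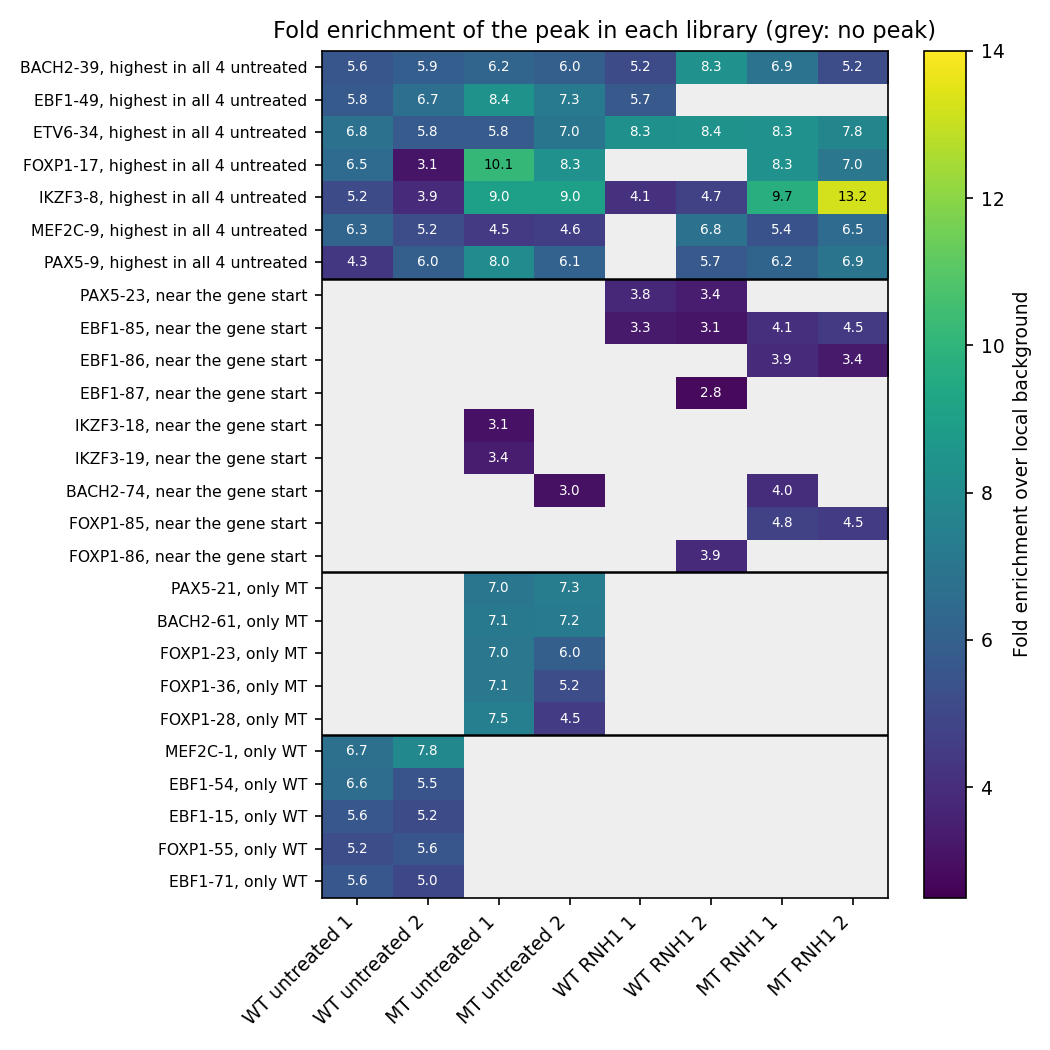
Fold enrichment over the local background of the peak in each of the 8 libraries (columns) for the regions named by rule (rows), with grey where no peak is listed. The uppermost block is the highest region of each gene among those in all 4 untreated libraries, followed by regions within 3 kb of a gene start, which hold peaks mostly in treated libraries, and the 5 highest MT-only and 5 highest WT-only regions.

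Regions with a peak in all 4 untreated libraries allowed heights to be set side by side. For each gene with such a region the highest was taken, and IKZF1 had none. In EBF1 it lay in intron 6, with a fold enrichment of 5.76 and 6.72 in WT against 8.42 and 7.29 in MT, and in FOXP1 in intron 7, with 6.51 and 3.15 against 10.14 and 8.31. That of IKZF3, in intron 3, had 5.19 and 3.92 in WT against 8.97 and 8.97 in MT. PAX5 had 4.35 and 5.98 against 8.04 and 6.10, and BACH2 5.56 and 5.93 against 6.24 and 5.96. In these 5 both MT values were above both WT values, in BACH2 by little (5.93 against 5.96 between the nearest). In ETV6 (6.82 and 5.79 against 5.79 and 6.99) the groups overlapped, and in MEF2C WT was higher (6.27 and 5.23 against 4.45 and 4.62). The regions of ETV6, IKZF3 and BACH2 were also listed in all 4 treated libraries, and none of their peaks was bona fide. With 2 libraries against 2, a two-sided exact permutation test cannot fall under 0.05, so these heights are given without a test.

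Of the 392 regions, 6 were in all 8 lists, 1.531% beside 2.155% of all regions, and lay in PAX5, EBF1, IKZF3, ETV6 and, for 2, BACH2. Their peaks were listed after RNH1 as before it. The IKZF3 region (chr17:39797231-39798294) had 4.12 and 4.74 in WT RNH1 and 9.72 and 13.23 in MT RNH1. An EBF1 region in intron 6 (chr5:159050267-159051222) had 3.76 and 5.49 in untreated WT against 7.84 and 7.21 in untreated MT, and 4.07 and 6.71 in WT RNH1 against 13.22 and 11.97 in MT RNH1. Both carried more G than C on the strand of the transcript, with a GC skew, (G − C)/(G + C), of 0.349 in IKZF3 and 0.121 in EBF1. Among the other regions in all 8 lists the skew was 0.05 in PAX5, 0.088 in ETV6 and 0.056 and 0.279 in BACH2. Skew was not compared with that of other regions. The 300 bases around the median summit of the IKZF3 and of the EBF1 region are printed in the direction of the gene (minus strand, GRCh38 chr17:39797986-39798285 and chr5:159050310-159050609). Runs of at least 4 G are in capitals. The stretches show the base composition of these 2 regions alone.
IKZF3 intron 3: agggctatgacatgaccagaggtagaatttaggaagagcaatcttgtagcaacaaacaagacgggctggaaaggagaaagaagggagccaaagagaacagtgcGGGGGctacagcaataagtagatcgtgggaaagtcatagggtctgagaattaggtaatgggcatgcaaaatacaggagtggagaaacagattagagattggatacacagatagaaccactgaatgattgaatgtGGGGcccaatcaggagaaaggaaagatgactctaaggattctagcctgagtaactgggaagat
EBF1 intron 6: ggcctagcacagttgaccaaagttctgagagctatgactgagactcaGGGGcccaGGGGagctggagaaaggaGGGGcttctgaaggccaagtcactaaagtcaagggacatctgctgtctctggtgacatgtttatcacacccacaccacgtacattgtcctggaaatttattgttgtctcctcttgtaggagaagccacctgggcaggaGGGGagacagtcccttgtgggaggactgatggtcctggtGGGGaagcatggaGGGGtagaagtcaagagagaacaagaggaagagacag
The IKZF3 stretch holds 94 G and 40 C with 2 such runs, and the EBF1 stretch 99 G and 60 C with 6. Such runs were common: the central 300 bases of 298 of the 392 regions (76.0%) held GGGG on either strand, beside 67.6% of all 221658 regions in protein-coding windows. A run of G is a description of the letters and not a site of hybrid formation.

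Peaks listed both with and without RNH1 often had the higher fold enrichment after treatment. In MT, 181 regions of the 10 genes had a peak in both untreated libraries, 65 of them (35.9%, beside 48.8% over all windows) also had one in both treated libraries, and in 41 of those 65 (63.1%, beside 62.8%) the treated mean was the higher. In WT the same held for 9 of 10 regions out of 56, beside 57.3% over all windows. Fold enrichment is relative to the background of each library, which was lowest in the RNH1-treated ones, so heights do not compare amounts of hybrid between treatments. The tallest treated peak, in intron 1 of MEF2C (chr5:88838776-88839212), had 20.06 and 17.51 in MT RNH1 and 6.20 and 7.48 in untreated MT, with no peak in WT. Of the 46 regions with treated peaks alone, 5 were in all 4 treated lists, and the tallest was in intron 3 of IKZF1 (chr7:50342935-50343596), with 4.57 and 6.30 in WT RNH1 and 14.31 and 11.26 in MT RNH1. These 2 regions were chosen after their values were seen.

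The edges of peaks lay on the restriction sites used to cut the DNA before the pull-down, HindIII, EcoRI, BsrGI, XbaI and SspI. Of the 1015 peaks over the 10 genes, 272 (26.8%) started and 284 (27.98%) ended at the exact base where one of these enzymes leaves a fragment end, and 520 (51.23%) did one or the other, although such positions are 0.1875% of the bases of the windows. The share with either edge at a cut was 52.44% and 52.69% for WT against 47.6% and 52.12% for MT without treatment, with WT slightly higher. After RNH1 it was 51.85% and 53.57% for WT and 56.3% and 47.76% for MT, which overlapped. Untreated peaks started at a cut in 32.93% and 34.41% for WT against 24.45% and 26.64% for MT, while the shares of ends overlapped. Both edges lay at cuts for 7.317% and 7.527% of untreated WT peaks against 1.31% and 3.089% of untreated MT peaks. These differences between genotypes were not tested. Among starts, 291 lay from 0 to 19 bp past the nearest cut position and 0 in the 20 bp before it. Of peak ends, 284 lay from 0 to 19 bp past it, all of them at 0, and 21 in the 20 bp before it. SspI sites met 61 starts and 89 ends, HindIII sites 76 and 83, BsrGI sites 53 and 58, XbaI sites 34 and 29 and EcoRI sites 48 and 25. The length of such a peak is not the length of an R-loop.

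The reference sequence at such edges is given for 6 of the regions on the forward strand of GRCh38, with the cut site in capitals, to show what bounds the peaks. The start of a peak is the base after the upper-strand cut, and its end the last base before the lower-strand cut.
PAX5 intron 6 region in all 8 lists, start (chr9:36953392-36953425): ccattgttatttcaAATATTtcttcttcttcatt
PAX5 intron 6 region in all 8 lists, end (chr9:36954152-36954185): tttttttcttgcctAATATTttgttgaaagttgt
EBF1 intron 6 WT-only region, start (chr5:159033392-159033425): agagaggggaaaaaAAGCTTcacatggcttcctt
EBF1 intron 6 WT-only region, end (chr5:159033917-159033950): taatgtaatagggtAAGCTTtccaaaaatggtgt
MEF2C downstream WT-only region, start (chr5:88713875-88713908): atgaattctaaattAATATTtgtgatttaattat
MEF2C downstream WT-only region, end (chr5:88714217-88714250): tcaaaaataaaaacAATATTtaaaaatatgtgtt
BACH2 intron 4 region in all 8 lists, start (chr6:90117028-90117061): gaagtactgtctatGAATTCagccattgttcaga
BACH2 intron 4 region in all 8 lists, end (chr6:90117707-90117740): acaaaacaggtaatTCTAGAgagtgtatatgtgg
IKZF1 intron 3 treated-only region, start (chr7:50342920-50342953): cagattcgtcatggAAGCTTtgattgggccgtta
IKZF1 intron 3 treated-only region, end (chr7:50343578-50343611): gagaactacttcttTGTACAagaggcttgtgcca
MEF2C intron 1 region tallest after RNH1, end (chr5:88839194-88839227): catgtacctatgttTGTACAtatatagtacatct
In BACH2, the peaks of all 8 libraries ended at this XbaI site and 1 of 8 started at the EcoRI site. In PAX5, 5 of 8 ended and 2 of 8 started at these SspI sites. In EBF1, both WT peaks ran from the one HindIII site to the other. In IKZF1 and in MEF2C intron 1, 4 of 4 peaks ended at the BsrGI site shown, and 2 of 4 of those in IKZF1 started at the HindIII site. Downstream of MEF2C, 1 of 2 WT peaks started and 2 of 2 ended at the SspI sites.

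**Figure D4:**
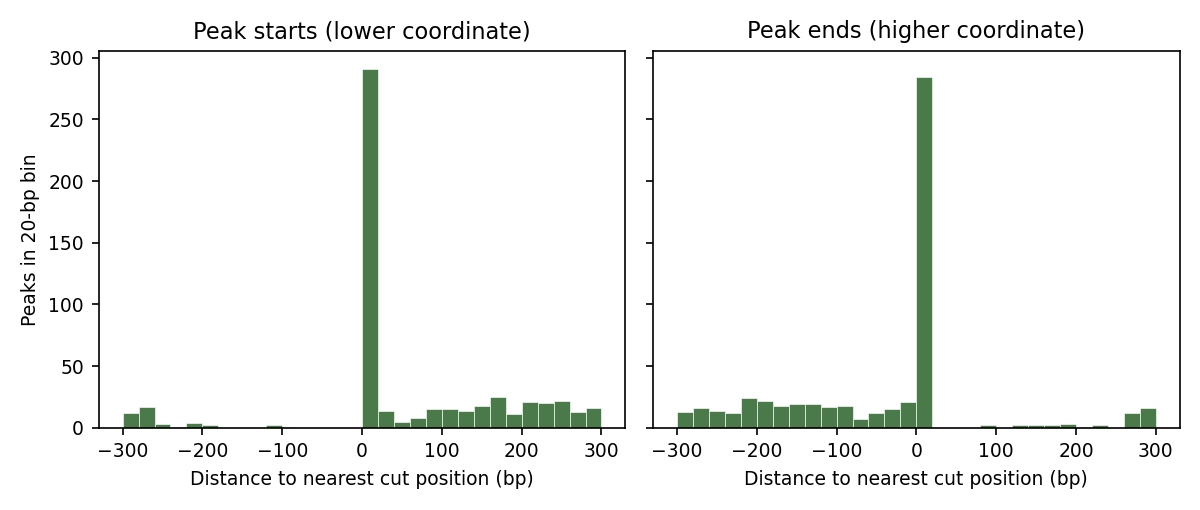
Distance in bp from the start (left) or end (right) of each of the 1015 peaks over the 10 genes to the nearest restriction cut position (horizontal axis), as the number of peaks in 20-bp bins (vertical axis). The bin from 0 holds 291 starts and 284 ends, and bins just before a cut position for starts, or just past it for ends, are nearly empty.

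Peak density varied with base composition. TCF3 and CD79A, the genes without an untreated peak, had the highest GC content of the 10 windows, 59.3% and 56.6%, and 0.55 and 0.50 cut sites per kb, where the other 8 had 36.0% to 49.5% GC and 1.28 to 2.56 sites per kb. Their lack of peaks was shared with 3779 of 19982 protein-coding windows (18.91%), and with 53.06% of windows of 55% to 60% GC. Across GC bins the untreated density of all windows fell from 5.54 peaks per 100 kb in WT and 11.23 in MT at 35% to 40% GC to 0.95 and 0.50 at 60% to 65% GC. R-loops were not detectable over the 49325 bp of the TCF3 window and the 10094 bp of the CD79A window without RNH1. Base composition, cutting and R-loop level cannot be told apart there.

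Per 100 kb, the mean of the 2 untreated MT libraries was highest in EBF1 (14.51), followed by ETV6 (13.31), IKZF1 (12.15), BACH2 (12.09), MEF2C (10.36), IKZF3 (8.88), FOXP1 (7.87) and PAX5 (6.04). In WT, IKZF3 was highest (4.88), followed by BACH2 (4.65), MEF2C (4.40), EBF1 (4.27), ETV6 (3.58), PAX5 (3.38), FOXP1 (3.15) and IKZF1 (2.34). In MT the replicate ranges of EBF1, ETV6, IKZF1, BACH2 and MEF2C each overlapped that of the next, and those of MEF2C, IKZF3, FOXP1 and PAX5 did not. In WT the ranges of IKZF3, BACH2, MEF2C and EBF1 overlapped in turn, as did those of FOXP1 and IKZF1, where IKZF1 ran from 0.93 to 3.74. By its mean IKZF1 was the lowest of the 8 in WT and the third in MT, but the replicates do not fix these ranks. Its WT range also took in the values of ETV6, PAX5 and FOXP1, as that of MEF2C (3.11 to 5.70) did for ETV6 and PAX5. In MT its range (11.21 to 13.08) lay within those of ETV6 (11.12 to 15.49) and BACH2 (10.36 to 13.82). The median of all windows was 2.68 in WT and 7.27 in MT.

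**Figure D5:**
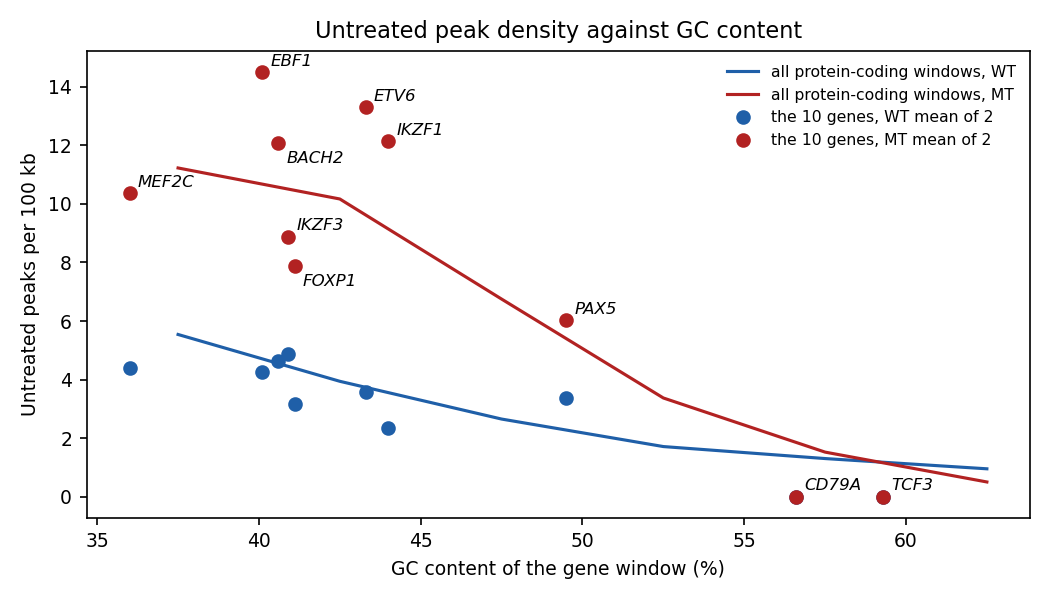
Untreated peaks per 100 kb (vertical axis) against the GC content of the gene window in % (horizontal axis), with points for the 10 B-lineage genes (mean of 2 libraries) and lines for all protein-coding windows in bins of 5% GC, in WT (blue) and MT (red). EBF1, ETV6, IKZF1 and BACH2 lie above the MT line, FOXP1 and IKZF3 below it, and TCF3 and CD79A at 0 where both lines are low.

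Other genes of the B lineage were read beside these. Of a list of 35, 27 were tested and 10 were called higher in untreated MT, 0 lower, with a median log2 difference of 0.90, beside the 32.4% called higher and the median of 0.95 over all windows. Among them, BLNK, the adaptor of B cell receptor signalling, had 6 and 6 peaks in WT against 15 and 14 in MT (1.15 ± 0.14 SE, limma adjusted p = 0.00795). RUNX1, the partner of ETV6 in the leukemia fusion, had 44 and 53 in WT against 131 and 170 in MT (1.61 ± 0.36, limma adjusted p = 0.0296). ZCCHC7, on this list and among the 10 called, is the neighbour of PAX5 and not a B-lineage factor. It had 18 and 21 in WT against 32 and 35 in MT (0.75 ± 0.19, limma adjusted p = 0.0398). Some of the 10 calls rest on few peaks. CD22 had 1 and 1 in WT against 2 and 2 in MT, and IRF4 2 and 1 against 3 and 3. ERG, with 13 and 16 against 36 and 37, was not called (limma adjusted p = 0.0566). Of the genes of other lineages, 5 of 14 tested T-lineage genes (median 0.91) and 2 of 3 tested myeloid and erythroid genes (median 1.15) were called higher and 0 lower. Among treated libraries 17 of 27 B-lineage, 8 of 14 T-lineage and 1 of 3 myeloid and erythroid genes were called higher in MT, beside 62.0% of all windows. Within WT, untreated counts were called above treated ones for 9 of 27, 3 of 14 and 0 of 3 genes of these lists, beside 25.7% of all windows, and within MT for 3 of 27, 0 of 14 and 0 of 3, beside 2.75%. For bona fide peaks limma called 0 of 18 B-lineage and 0 of 6 T-lineage genes, and no myeloid or erythroid gene had enough peaks.

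The genes whose counts across the 8 libraries were most like the mean profile of the 8 tested genes, by the Euclidean distance of centred log2(peaks + 1), were FOXN3, CACNA1D and KAZN, out of 762 genes with a mean of at least 20 peaks per library. FOXN3 (distance 0.22) had 14 and 17 peaks in WT against 39 and 45 in MT without treatment, and 6 and 12 against 22 and 24 after RNH1. CACNA1D lay at 0.23 and KAZN at 0.24, and the 8 genes themselves lay between 0.56 and 1.35 from their own mean.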

How the data were processed

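DRIP-seq was performed in 8 Nalm-6 libraries. According to Methods, the authors aligned reads to GRCh38 with BWA, removed duplicates and called narrow peaks with MACS2 for each library, and the deposited lists give for each peak a fold enrichment (a ratio to local background), a −log10 p and a −log10 q. The highest q in the lists was 0.01. The HEK293T splicing table was not used here. The 10 genes and the gene lists were chosen with earlier results of these data known.

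Gene records were taken from GENCODE v44 on GRCh38, the build of the lists. Peaks outside the autosomes, X and Y were left out, and list lengths count only the rest. Peaks per window were compared by limma 3.58.1 (R 4.3.3) with a variance trend on log2(peaks + 1), a minimum of 8 summed peaks, all 8 libraries in one fit (the 4 untreated ones for bona fide peaks) and Benjamini-Hochberg adjustment, with an adjusted p under 0.05 as the threshold. A log2 difference on this scale understates changes at low counts. The comparison was tested on simulated data. Named were, by rule, all 10 genes, the highest region in all 4 untreated libraries, regions within 3 kb of gene starts, the 5 highest MT-only and WT-only regions, and the 3 genes with the most similar counts. Scaling to list length, stricter peaks, other windows, pseudocounts, subtractions and left-out libraries were tried as alternatives. Sequences were read from GRCh38 with pysam. Peaks per library and the local background, given in the report, set the precision.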

Additional observations from a re-analysis of the deposited data

How the results depend on the processing

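How many of the 8 genes, and of all windows, were called depended on scaling to list length, on the fit and on single libraries, and the cause was not tested. Scaled to list length, untreated peaks gave 0 genes and 347 windows (5 and 3682 as listed), bona fide peaks 2 and 707 (0 and 18), RNH1-treated peaks 1 and 2072 (6 and 7013), untreated against treated 1879 windows in WT (2960) and 0 in MT (324), and the difference in response 0 windows (162). PAX5 (−0.25) and IKZF3 (−0.21) reversed for untreated peaks, and MEF2C (−0.15) for bona fide peaks. For treated peaks PAX5 (−1.23), EBF1 (−0.27), IKZF1 (−0.23), IKZF3 (−0.38) and ETV6 (−0.41) reversed, and so did PAX5 (−0.13), EBF1 (−0.44), IKZF1 (−0.55), IKZF3 (−0.12) and ETV6 (−0.73) for untreated against treated peaks in WT.

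For bona fide peaks, a pseudocount of 0.5, a fold enrichment of at least 4, a −log10 q of at least 4, the summit rule, the gene body alone and subtraction by the summit gave 0 windows, subtraction of both treated lists 234, no filter 1 gene and 2050 windows, and covered bases 5 genes and 733 windows. For untreated against treated peaks in WT, a fold enrichment of at least 4 gave 1907 windows and reversed IKZF1 (−1.29), as did a −log10 q of at least 4 (−0.79). In MT, no filter gave 1369 windows, a −log10 q of at least 4 gave 512 and covered bases 158. The difference in response was called in 408 windows with the pseudocount of 0.5, 1257 with no filter, 429 and 288 with stricter fold enrichment and q, and 0 with covered bases. Fitting only the 2 groups compared gave 0 genes and 2638 windows for treated peaks, 0 and 1335 for untreated against treated in WT and 3 and 1227 in MT.

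Leaving out 1 library gave 0 to 3 genes and 879 to 1958 windows for untreated peaks, 0 genes and 0 to 870 windows for bona fide peaks, 3 to 7 and 2860 to 7962 for treated peaks, 0 to 6 and 1040 to 6189 for untreated against treated in WT, and 0 genes and 334 to 416 windows in MT. It gave 0 to 1 gene and 177 to 2871 windows for the difference in response, the highest without WT RNH1 replicate 2. A lone library was assumed to vary like the other groups. PAX5 reversed for treated peaks without WT RNH1 replicate 1 (−0.13, against 0.87 without replicate 2) and IKZF1 for untreated against treated in WT without untreated WT replicate 2 (−0.29, against 1.03 without replicate 1). MT-only regions numbered 24 at a fold enrichment of at least 4, 124 without RNH1 subtraction and 61 to 129 without 1 library, and WT-only regions 12 to 28 without 1 library.

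Window by window, the deviations of libraries that share a replicate number had correlations of −0.042 to 0.041 over all groups. They were 0.009 in WT and −0.001 in MT between untreated and treated libraries, which may come from one DNA. A shift of a whole library does not enter these correlations, and replicate 2 had the longer list in every group but MT RNH1. Between genotypes, libraries of one number share only that number. With the replicate block common to both genotypes, untreated peaks gave 5 genes and 3517 windows, treated peaks 7 genes, bona fide peaks 0 windows, untreated against treated in MT 82 windows and the difference in response 0 windows. With the block within each genotype, chosen after seeing the data, untreated against treated peaks gave 0 genes and 0 windows in WT, and 0 windows in MT and for the difference in response. IKZF3 lost its call for untreated peaks under every alternative but the summit rule. Of 583 recomputed gene values, 483 kept direction and call, 56 lost the call, 27 gained it and 17 reversed.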
